A study of Hydractinia symbiolongicarpus with 45 samples.

Results

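The 200 gene models with the longest coding sequence in the Hydractinia symbiolongicarpus count table were followed through the first 72 hours of development. They were chosen by the length given beside the counts, taking the 200 largest values of 22022 gene models, so that expression played no part in the choice. Their lengths ran from 74961 bases (HyS0025.217) to 8508 bases (HyS0003.320), with a median of 11719.5 bases against 1053 bases for the 21822 other models. The first model left out, HyS0102.10, had 8502 bases. The long models made up 0.908% of the models and 8.13% of the coding bases. All lengths were multiples of 3 bases, so introns and untranslated regions are not in them, and the length of a transcribed gene is not known from these data.

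RNA of whole eggs, embryos and larvae from breeder colonies of wild-type animals was sequenced in 43 libraries, of which 25 were poly(A)+ (RNA pulled down through its tail) and 18 were rRNA-depleted (RNA kept with or without a tail after removal of ribosomal RNA). Both types were made from the same samples of unfertilized eggs (3 libraries a type), of embryos at 2, 3 and 4 hours post fertilization (hpf, 2 libraries each), and of embryos at 0.5, 1, 5 and 6 hpf (1 library each). The 7 hpf stage had 1 rRNA-depleted library and 2 of the poly(A)+ type, and larvae at 24, 48 and 72 hpf had only poly(A)+ libraries, 2 each. Embryos given 20 µM Triptolide, dissolved in DMSO, were compared with embryos given DMSO at 0.5%, both collected at 7 hpf, with 2 libraries a treatment and type. Letters A to G in the labels stand for collection groups of embryos, here called clutches and taken as replicates, so that p-values measure the spread between them, and each library pooled many embryos. In 2 further pilot libraries of embryos at 1 hpf, RNA was either poly(A)+ selected or not selected.

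An animal egg is loaded with maternal mRNA, and the embryo lives on it until its own genome is activated and part of the maternal RNA is cleared. In the early embryo the tails of stored mRNAs can be lengthened or shortened in the cytoplasm, which changes how much of an mRNA a poly(A)+ library captures without any change in its amount. Triptolide blocks transcription initiation by RNA polymerase II, so it separates RNA made in the embryo from RNA inherited from the egg. In Drosophila and zebrafish embryos many of the first genes to be transcribed are short, and long genes take longer to transcribe within short cell cycles.

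Library totals lay between 3107733 and 32015981 counts in poly(A)+ libraries and between 3503063 and 20464403 in rRNA-depleted ones. At a level of 1 TPM (transcripts per 1e6, a share of a library corrected for length), a model of the members' median length stood for 27.5 to 297 counts in these libraries. A model of the other models' median length stood for 2.47 to 26.7 counts at the same level. At 2 hpf over the egg in poly(A)+ the median standard error (SE, log2 scale) of long models was 0.33, against 0.19 for the others. In rRNA-depleted libraries it was 0.14, against 0.17. The SE was computed from the fold change and its test statistic, so it was 0 where the fitted change was 0. In poly(A)+ 6600 of 18729 others lay below 0 and 8246 above, against 101 and 92 of 199 long models. These medians therefore do not compare precision. The long models took 1.34 to 5.30% of the counts in poly(A)+ libraries (median 2.64%) and 4.24 to 5.48% in rRNA-depleted libraries (median 4.72%). The 72 hpf library of clutch F stood apart with 1.34% (95% Wilson interval 1.34 to 1.35%, counting error only), against 4.07% in clutch E (4.05 to 4.08%). Reads that fitted several models were shared out as fractions. More than 50% of a model's values were fractional in 62 long models (31.0%) and in 29.8% of the others, and such values are less certain. The long models lay on 75 scaffolds, at most 11 on a single one, and 0 of them shared identical counts with another model. No names come with the identifiers, and 0 of the 37 models that the paper names by identifier are among them.

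Most of the long models were supplied to the egg, at levels below those of other supplied models. A mean of at least 1 TPM over the 3 egg libraries was reached by 132 long models (66.0%) in poly(A)+ and by 146 (73.0%) in rRNA-depleted libraries, against 50.3% and 51.5% of the other models. The 132 were all among the 146, and the 14 that reached 1 TPM in rRNA-depleted libraries alone had a median of 0.531 TPM in poly(A)+ eggs and of 1.46 TPM in the rRNA-depleted ones. Among models at 1 TPM or more, the long models had a median level of 10.9 TPM in poly(A)+ eggs and of 26.6 TPM in rRNA-depleted ones, against 44.9 and 57.7 TPM for the others. Only 3.00% and 7.00% of the long models reached 100 TPM, against 10.5% and 11.8% of the others. Shares in the next length classes were close to these. Of the next 800 models by length, 72.6% reached 1 TPM in poly(A)+ and 75.9% did so in rRNA-depleted libraries, and of the 4000 after them, 69.3% and 70.2%, but only 44.8% and 46.0% of all shorter models. Within the 200 the level was only weakly related to length (Spearman's rho -0.11 in poly(A)+ and -0.09 in rRNA-depleted eggs, across 200 models of the same libraries). The heat map of levels by library shows the 146 supplied models with similar levels through the first hours.

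**Figure D1:**
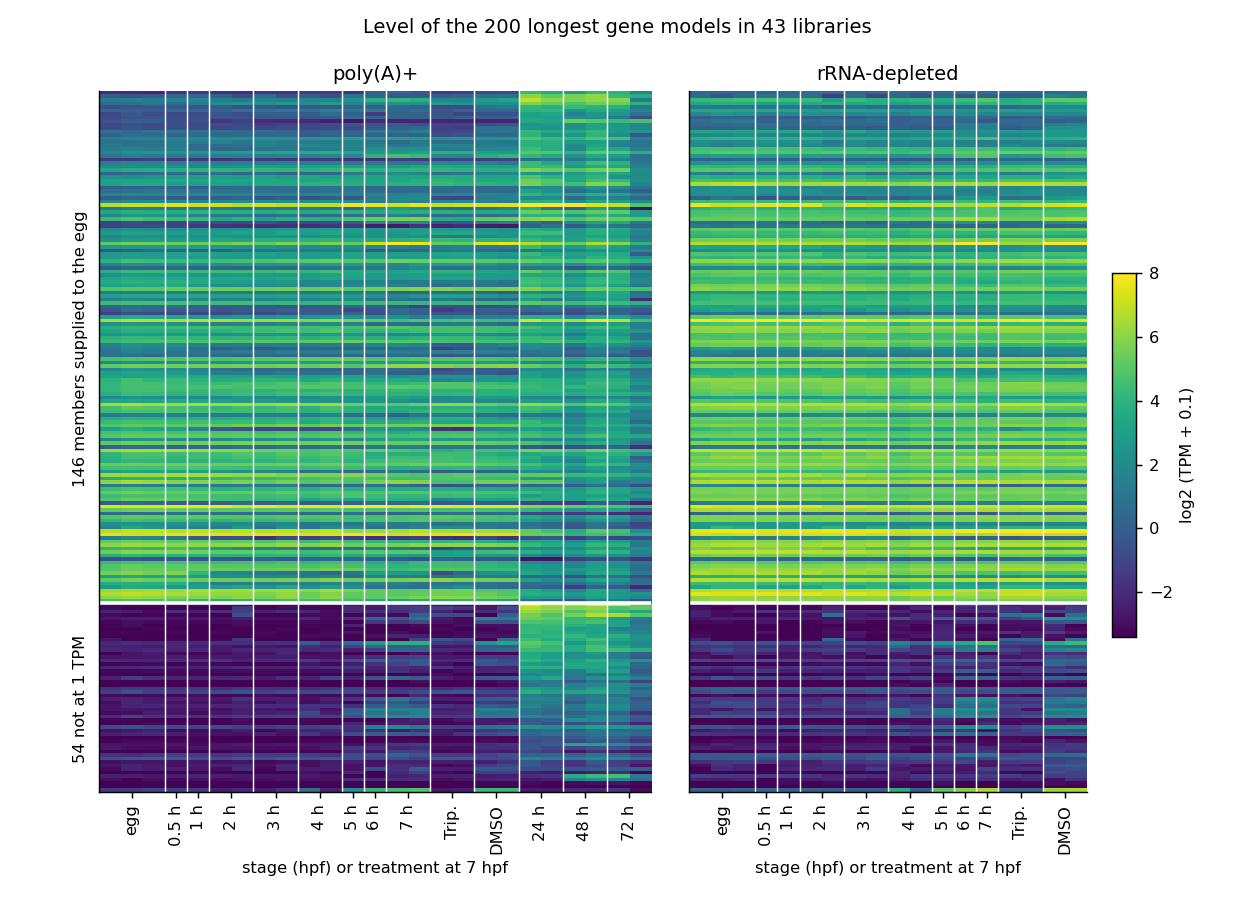
Level of each of the 200 longest models (rows) in each of 43 libraries (columns), as log2(TPM + 0.1). The 146 models at 1 TPM or more in the egg lie above the line, ordered by their change at 24 hpf, and the 54 others below it; many of the 54 stay dark up to 4 hpf and brighten at 7 and 24 hpf, and in the Triptolide columns many of these rows are darker than in the DMSO columns beside them.

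The longest model, HyS0025.217, was present at low level throughout the first hours. It had 0.171, 0.267 and 0.252 TPM in poly(A)+ eggs and 0.702, 0.916 and 1.02 TPM in rRNA-depleted eggs, and the groups did not overlap. Every embryo library up to 7 hpf stayed between 0.138 and 0.315 TPM in poly(A)+. At 24 hpf it had 8.39 and 5.55 TPM, far above the egg (log2 fold change 5.46 ± 0.41 SE, adjusted p = 1.71e-09). The second longest, HyS0017.152 with 46713 bases, had 2.42, 2.92 and 2.33 TPM in poly(A)+ eggs and 18.7, 19.9 and 23.0 TPM in rRNA-depleted eggs, with 95.6% of its values fractional. It had 17.7 and 14.2 TPM in poly(A)+ libraries at 7 hpf and 124 and 62.0 TPM at 24 hpf. The third, HyS0024.144 with 39519 bases, was abundant in rRNA-depleted eggs and is described with the library types.

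Among the long models of the egg, in poly(A)+ libraries HyS0078.25 led with 175, 178 and 180.3 TPM, beside 199.7, 166 and 170.4 TPM in rRNA-depleted eggs, and HyS0067.18 followed with 185, 155 and 149.9 TPM. Both were lower at 24 hpf, with 64.2 and 65.3 TPM for HyS0078.25 (log2 fold change -0.93 ± 0.22 SE, adjusted p = 0.0011) and 39.7 and 42.8 TPM for HyS0067.18 (-1.46 ± 0.21, adjusted p = 5.41e-06). In rRNA-depleted eggs the leaders were HyS0068.42, with 234, 205 and 223 TPM, and HyS0002.164, with 191, 214 and 219 TPM. HyS0068.42 had 85.1, 114 and 109 TPM in poly(A)+ eggs. At 7 hpf its poly(A)+ level was 23.0 and 27.5 TPM (log2 fold change to the egg -2.03 ± 0.41 SE, adjusted p = 0.000493), while the rRNA-depleted library held 152 TPM (-0.17 ± 0.19, adjusted p = 0.512).

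In the egg, the long models were lower in poly(A)+ than in rRNA-depleted libraries. In a fit over both types, 110 of 199 long models tested were called lower in poly(A)+ and 1 was called higher (edgeR, adjusted p under 0.05), where 14.2% of all models tested were called lower and 13.3% higher. With the sample behind each pair of libraries as a block, 4 long models were called higher (21.0% of all). The median log2 fold change was -0.87 over the long models and 0.00 over the others, 174 of 199 lay below 0, and 84 (42.2%) were called more than 2-fold lower, where 7.15% of all models were. Among models supplied to the egg, 97 of 146 long models (66.4%) were called lower, against 22.6% of the other supplied models, with medians of -0.96 and 0.07. Supply was set at 1 TPM in either type. Of the 146, 14 passed through rRNA-depleted eggs alone and 0 through poly(A)+ eggs alone, against 368 and 107 of 11347 others. Such models differ between the types by that choice, so part of the gap between supplied sets is fixed by it. Of long models with mostly fractional counts 40 of 62 were called lower (median -1.11), and of those with mostly whole counts 69 of 133 (median -0.80). A fold change here is relative to the other models of the same library, since the counts are scaled by library. The scaling does not by itself set the median over all models to 0. In this comparison 7036 of 19262 others lay below 0 and 8043 above, and the rest had a fitted change of 0.

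The difference grew with length along the whole range of supplied models. Ordered by length, the 200 longest supplied models had a median log2 fold change of -0.87 (median length 10249 bases), the next 300 had -0.61 (6048 bases) and the next 500 had -0.39 (4399 bases). The median lay near 0 for 2000 models with a median length of 2184 bases (-0.09) and was 0.37 for the shortest 3493 (582 bases). Spearman's rho with length was -0.37 across 11493 supplied models and -0.22 across the 146 long ones, which all share the same 6 libraries. Supply was set in these same libraries, with the limit given above. Base composition, tail length, the intactness of the RNA and the ends of the transcripts are not in these data. Their part was not tested.

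**Figure D2:**
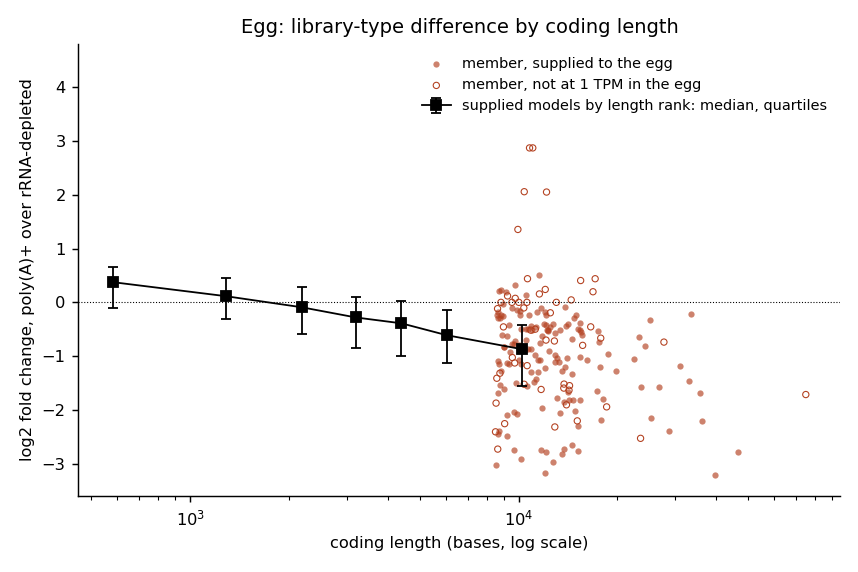
Fitted log2 fold change of eggs, poly(A)+ over rRNA-depleted, against coding length on a log axis. Points are the long models (filled where supplied to the egg, open where not), and squares with bars are medians and quartiles of all supplied models in bins of length rank; the medians fall with length from 0.37 at 582 bases to -0.87 at 10249 bases.

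The long models were lower in poly(A)+ in each of the 18 samples from which both types were made. The median log2 ratio of poly(A)+ to rRNA-depleted normalized counts over the 146 supplied long models lay between -1.30 (7 hpf, clutch B) and -0.82 (egg, clutch C), and between 0.03 and 0.20 over the other supplied models. Between 131 and 142 of the 146 were lower in poly(A)+ in any 1 sample (89.7 to 97.3%), against 39.8 to 48.4% of the others. The difference between the medians was below 0 in 18 of 18 samples, from -1.49 to -0.86. The supplied sets were chosen in the egg libraries of both types, so the limit given above for that choice holds here too. The pilot libraries at 1 hpf had no replicate and no rRNA depletion. There, 133 of 134 long models with 10 counts in both were lower in the poly(A)+ than in the unselected library (median log2 ratio -1.21), against 64.7% of 8328 others (median -0.25).

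**Figure D3:**
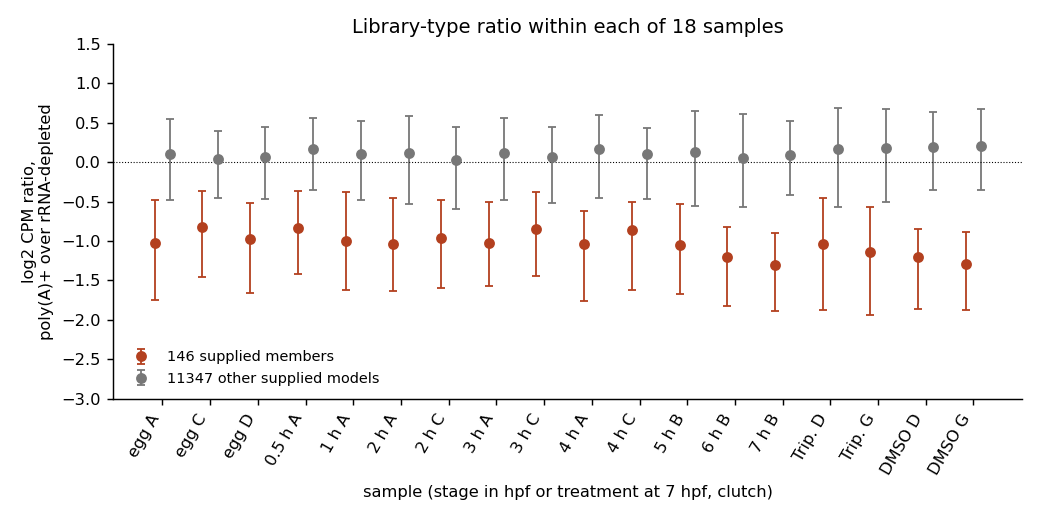
Median log2 ratio of poly(A)+ to rRNA-depleted normalized counts over supplied models in each of 18 samples, with quartiles as bars, for the 146 long models and the 11347 others. The long models lie between -1.30 and -0.82 and the others between 0.03 and 0.20 in all 18.

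HyS0024.144 and HyS0016.308 had the largest gaps between the types that met the rule for naming. HyS0024.144 had 8.65, 11.3 and 10.7 TPM in poly(A)+ eggs, against 89.8, 114 and 127 TPM in rRNA-depleted eggs (log2 fold change -3.20 ± 0.44 SE, adjusted p = 3.89e-06). Its rRNA-depleted level stayed between 62.3 and 129 TPM in every later library, and its poly(A)+ level was 51.9 and 30.2 TPM at 24 hpf (2.54 ± 0.53 to the egg, adjusted p = 0.000324). HyS0016.308, all of whose values were fractional, had 2.86, 5.02 and 4.38 TPM in poly(A)+ eggs, against 39.3, 43.9 and 45.0 TPM in rRNA-depleted eggs (-3.17 ± 0.22, adjusted p = 2.28e-11). The only long model called higher in poly(A)+ was HyS0067.18, with 185, 155 and 149.9 TPM, against 151, 123 and 132 TPM (0.51 ± 0.18, adjusted p = 0.0336). That call was lost without poly(A)+ egg A (adjusted p = 0.255) and without rRNA-depleted egg C (0.143) or D (0.102).

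Up to 4 hpf more long models were called in poly(A)+ than in rRNA-depleted libraries. In poly(A)+, 1 was called higher and 14 lower than the egg at 2 hpf (1.19% and 5.2% of all 18928 models tested), and 8 higher and 20 lower at 3 hpf (3.84% and 6.77%). At 4 hpf 19 were higher and 27 lower of 199 (11.2% and 8.35% of all). Without the 4 hpf library of clutch A these were 9 and 17, and with the clutch as a block 12 were higher (9.37% of all). At 2 hpf 7 were lower without clutch A of that stage and 9 without clutch C or egg C. At 3 hpf 13 were lower without clutch A of that stage, and 2 were higher without its clutch C, 3 without its clutch A or egg A, and 5 without egg C. In rRNA-depleted libraries, of 196 tested, 0 were called in either direction at 2 hpf by edgeR (0.0% of all models). At an unadjusted p under 0.05 in that test, 4 were higher and 3 lower, against 108 and 47 of 15748 others. DESeq2 called 1 lower (0.0188% of all). At 3 hpf 0 were higher and 2 lower by edgeR (0.37% and 0.0314% of all). At an unadjusted p under 0.05 they were 1 and 11, against 286 and 71 of 15748 others. DESeq2 called 0 higher and 5 lower (0.0564% of all for the lower). With the clutch as a block 4 were lower (0.107% of all). Without egg C 1 was lower, and without egg A or D 0. At 4 hpf 6 were higher and 3 lower (2.95% and 0.508% of all), and with the clutch as a block 12 and 11 (3.44% and 1.97% of all).

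The changes of the supplied long models up to 4 hpf left their median near 0. Their median log2 ratio to the egg in poly(A)+ was -0.05 at 2 hpf, -0.06 at 3 hpf and -0.10 at 4 hpf, against 0.04, 0.03 and 0.07 for other supplied models, and 14, 17 and 23 of 146 were more than 2-fold lower (9.59%, 11.6% and 15.8%, against 6.14%, 7.51% and 8.39% of the others). In rRNA-depleted libraries 0, 0 and 1 of the 146 were more than 2-fold lower at the same stages, against 0.608%, 0.740% and 0.899% of the others. The 27 long models lower at 4 hpf in poly(A)+ had a median log2 fold change of -1.66 there and of -0.15 in rRNA-depleted libraries, where 3 of the 27 were called. At 7 hpf 18 of the 27 were called lower in rRNA-depleted libraries as well, with a median of -0.80. Of the 19 that were higher at 4 hpf in poly(A)+, 1 was called higher in rRNA-depleted libraries (median 0.00) at that stage and 8 at 7 hpf. Such overlaps were not counted for the other models, so they are not read as particular to the long ones. The 27 and the 19 were picked by their poly(A)+ change at 4 hpf. Nothing is read from their medians in that type or from the gap to the other type.

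Tested as the difference between types, the change from egg to 2 hpf was more positive in poly(A)+ for 1 long model and more negative for 8 (0.601% and 3.46% of all models). For 4 hpf the counts were 10 and 18 (4.09% and 5.23% of all). With the sample as a block they were 28 and 29 at 2 hpf (4.88% and 7.6% of all) and 37 and 43 at 4 hpf (10.1% and 9.7% of all). All 18 of the more negative ones were called lower in poly(A)+ at 4 hpf and none in rRNA-depleted libraries, with medians of -1.97 and -0.15. The 18 were picked by this difference in the same libraries, so nothing further is read from these values. At 2 hpf 5 rather than 8 were called without clutch A in poly(A)+ or without clutch C in rRNA-depleted libraries.

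HyS0130.7 and HyS0130.13, 2 models of 12897 and 9732 bases on the same scaffold, were far lower in poly(A)+ libraries from 2 hpf on. HyS0130.7 had 1.89 and 1.20 TPM in poly(A)+ embryos at 4 hpf, against 49.7, 58.3 and 45.9 TPM in eggs (log2 fold change -5.04 ± 0.49 SE, adjusted p = 6.4e-07). Between these stages it had 54.8 TPM at 0.5 hpf, 16.9 TPM at 1 hpf and 3.70 and 2.96 TPM at 2 hpf. Its rRNA-depleted level was 92.9 and 70.2 TPM at 2 hpf and 42.0 and 52.3 TPM at 4 hpf, against 98.4, 83.6 and 87.0 TPM in eggs (-0.57 ± 0.17 at 4 hpf, adjusted p = 0.122). The difference between the types at 4 hpf was -4.41 ± 0.53 on the log2 scale (adjusted p = 1.52e-06). HyS0130.13 had 0.493 and 0.430 TPM in poly(A)+ at 4 hpf, against 8.65, 13.3 and 10.0 TPM in eggs (-4.51 ± 0.40, adjusted p = 2.56e-07), and 7.68 and 12.7 TPM against 17.0, 21.2 and 23.5 TPM in rRNA-depleted libraries (-0.67 ± 0.21, adjusted p = 0.144). All values of both models were fractional, and how far they share reads cannot be read from the counts.

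Other long models were higher in poly(A)+ at 4 hpf without a call in rRNA-depleted libraries. HyS0012.245 had 4.54 and 7.42 TPM in poly(A)+ embryos at 4 hpf, against 1.41, 1.55 and 2.10 TPM in eggs (log2 fold change 1.80 ± 0.29 SE, adjusted p = 0.000191). It was already at 4.62 and 5.93 TPM at 2 hpf (1.65 ± 0.29, adjusted p = 0.00102). In rRNA-depleted libraries it had 8.38 and 10.9 TPM at 4 hpf, against 10.8, 13.5 and 12.9 TPM in eggs, a fitted change of -0.01 ± 0.11 (adjusted p = 1.0). TPM is a share of a library and the fold changes are fitted on TMM-scaled counts, so both scales can differ for a model. HyS0031.28 had 2.03 and 3.51 TPM in poly(A)+ at 4 hpf, against 1.16, 1.08 and 0.950 TPM in eggs (1.34 ± 0.29, adjusted p = 0.00232), and was not called without the 4 hpf library of clutch C (0.94, adjusted p = 0.0729).

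The higher calls in rRNA-depleted libraries at 4 hpf depended on clutch A. Of the 146 supplied long models 0 were called higher there. The reads were counted against transcripts, so intronic reads are not in these counts. With intronic reads the paper found activation of many genes already supplied to the egg, most of which exonic reads alone missed. Whether supplied long models were transcribed by this stage was therefore not tested. The 6 long models called higher at 4 hpf all had a mean under 1 TPM over the egg libraries. Without clutch A of that stage 0 were called higher, without clutch C 12 were, and without any 1 egg library 2. HyS0001.340, a model of 11715 bases, had 3.51 TPM in clutch A and 1.17 TPM in clutch C at 4 hpf, against 0.531, 0.640 and 0.373 TPM in eggs (log2 fold change 2.64 ± 0.45 SE, adjusted p = 0.00597, and 1.42 with adjusted p = 0.0744 without clutch A). HyS0003.498, of 8586 bases, had 12.5 TPM in clutch A and 1.10 TPM in clutch C, against 1.04, 0.844 and 1.07 TPM in eggs (3.26 ± 0.71, adjusted p = 0.0283). Its call was lost without clutch A of 4 hpf (0.37, adjusted p = 1.0) and without egg A (adjusted p = 0.0962), C (0.113) or D (0.107). Fitted with only the compared groups, neither was called (adjusted p = 0.0992 for HyS0001.340 and 0.236 for HyS0003.498). Of the 24 unsupplied long models called higher at 7 hpf in this type, 19 had more TPM in clutch A than in clutch C at 4 hpf, as had 75.2% of 1696 unsupplied others. The 2 lower models with the largest changes were HyS0009.236, with 1.23 and 1.25 TPM against 3.63, 3.86 and 3.41 TPM in eggs (-1.18 ± 0.16, adjusted p = 0.00112), and HyS0027.17, with 5.28 and 7.30 TPM against 13.7, 14.2 and 15.9 TPM in eggs (-0.87 ± 0.10, adjusted p = 0.000248).

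At 7 hpf long models were called higher than the egg in both library types. In poly(A)+ 62 of 199 were higher and 48 lower (28.5% and 19.9% of all models), with a median log2 fold change of 0.18 against 0.13 for the others. With the clutch as a block these counts were 36 and 27 (15.2% and 14.6% of all), and without clutch D of that stage 31 were lower. In the single rRNA-depleted library, of clutch B, 61 of 196 were higher and 28 lower (21.7% and 21.0% of all), with a median of 0.13 against 0.00. This test assumed that the stage varies like the replicated ones. With RLE size factors, which moved the median of all models by 0.12, the higher ones made up 80.0% of the long models called, rather than 68.5%. Of the 62 higher in poly(A)+, 42 were also called higher in rRNA-depleted libraries. This overlap was not counted for the other models, so it is not read as particular to the long ones. In whole embryos a lower level from fewer cells of a type and one from less RNA per cell cannot be told apart.

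The split by egg supply showed where these calls lay. Of long models supplied to the egg, 27 of 146 were higher and 48 lower in poly(A)+ at 7 hpf (18.5% and 32.9%, against 22.9% and 32.4% of other supplied models). In the rRNA-depleted library 37 were higher and 28 lower (25.3% and 19.2%), against 15.0% and 29.2% of the others. Only 10 of the 146 (6.85%) were more than 2-fold lower in that library, against 19.5% of the others, and the median log2 ratio to the egg was 0.04, against -0.21. Of unsupplied long models, 35 of 53 were higher in poly(A)+ (66.0%, against 37.0% of unsupplied others) and 24 of 50 in the rRNA-depleted library (48.0%, against 38.5%), and 0 were lower. An unsupplied model reached the test through the stages in which it has counts, and 53 of the 54 long ones but 7385 of 10475 others did so in poly(A)+, so these shares are not alike in what they cover.

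HyS0003.498 was the long model with the largest rise at 7 hpf in the rRNA-depleted library by the rule for naming. It had 89.0 TPM there, against 1.04, 0.844 and 1.07 TPM in eggs (log2 fold change 6.84 ± 0.80 SE, adjusted p = 6.07e-05), after 30.6 TPM at 5 hpf and 58.0 TPM at 6 hpf. Its poly(A)+ level was 23.9 and 29.9 TPM at 7 hpf and only 0.0690 and 0.0604 TPM at 24 hpf, beside 0.278, 0.284 and 0.393 TPM in eggs. HyS0001.340 had 27.3 TPM in the rRNA-depleted library, against 0.531, 0.640 and 0.373 TPM in eggs (6.09 ± 0.50, adjusted p = 4.7e-06), and remained present in larvae with 35.1 and 25.7 TPM at 24 hpf. Among those that were lower, HyS0004.256 had 9.24 TPM, against 52.6, 34.4 and 37.2 TPM in eggs (-1.81 ± 0.43, adjusted p = 0.00639). HyS0095.8 had 1.10 TPM, against 3.10, 5.22 and 4.53 TPM (-1.59 ± 0.49, adjusted p = 0.0218).

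Most long models had a higher poly(A)+ level at 24 hpf than in the egg. Larvae had no rRNA-depleted libraries, so a change in RNA amount and one in poly(A)+ capture cannot be told apart there. All larvae came from clutches E and F and the eggs from A, C and D, so stage and clutch cannot be told apart either. At 24 hpf 121 of 199 were higher and 36 lower than the egg in poly(A)+ (48.0% and 27.6% of all models), and the median log2 fold change was 1.53, against 0.75 for the others. Of the next 800 models by length 46.6% were called higher (median 0.42), of the 4000 after them 42.2% (0.11), and of all shorter models 49.5% (1.08). RLE size factors moved the median of all models by 0.18 at this stage and by 0.24 at 72 hpf. Among supplied models, 69 of 146 long ones were higher and 36 lower (47.3% and 24.7%), against 29.9% and 45.2% of the others, with medians of 0.60 and -0.33. Of the 54 unsupplied long models 53 were tested and 52 were higher. These were low in the egg by definition and entered the test through their later counts, so nothing is read from that share. Of 190 long models that reached 1 TPM at some untreated stage, 104 (54.7%) had their highest poly(A)+ mean in a larval stage, against 35.9% of the others, and 31 (16.3%) at 5 to 7 hpf, against 32.2%.

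At 72 hpf the count depended on the library. With both, 110 were higher and 45 lower (48.2% and 27.9% of all models), with a median of 0.92. Without clutch F 125 were higher with a median of 1.42, and without clutch E 85 were higher and 78 lower with a median of -0.03. The low share of counts on long models in clutch F stands beside this, and its part in the result was not tested. Without egg A the median was 0.55. At 48 hpf the supplied long models had a median log2 ratio to the egg of 0.47, against -0.32 for the others.

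**Figure D4:**
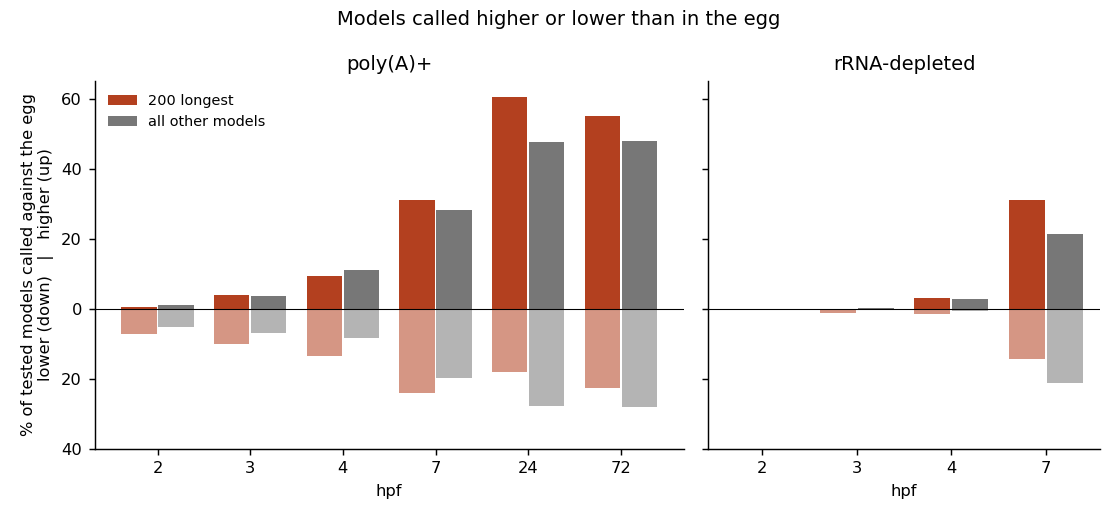
Percent of models called higher (upward) or lower (downward) than the egg at each stage tested, for the long models and all others, in poly(A)+ and rRNA-depleted libraries. The long models reach 60.8% higher at 24 hpf in poly(A)+, against 47.8% of the others, and 31.1% at 7 hpf in the rRNA-depleted library, against 21.6%.

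HyS0083.19 had the largest rise at 24 hpf among long models. It had 109 and 70.3 TPM, against 0.00456, 0 and 0 TPM in eggs, a ratio of 64728 with a counting interval of 11616 to 2556740 since the eggs held 1 count (exact binomial, counting error only). HyS0032.200 had 14.4 and 16.8 TPM and 0 counts in all 3 egg libraries, so it was at least 3562-fold higher against a floor of 3 counts over the eggs. The highest level of either in any library at 7 hpf was 0.511 TPM, of HyS0083.19 with DMSO. In the other direction, HyS0002.289 had 1.45 and 0.872 TPM, against 21.8, 27.8 and 26.6 TPM in eggs (log2 fold change -3.92 ± 0.45 SE, adjusted p = 3.5e-07). HyS0052.79 had 7.19 and 6.75 TPM, against 61.9, 78.9 and 66.4 TPM (-2.78 ± 0.24, adjusted p = 8.99e-09), while its rRNA-depleted level at 7 hpf, 60.3 TPM, was still close to that of the eggs (63.0, 74.8 and 73.8 TPM).

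The first stage with a higher call was counted for each long model. The stages tested were 2, 3, 4 and 7 hpf, and in poly(A)+ also 24 and 72 hpf. The stages between these were not tested. A first call at 7 hpf therefore covers any rise after 4 hpf, and one at 24 hpf any after 7 hpf. For supplied models a first call dates a rise in these counts and not the start of transcription, which was not tested. The 7 hpf counts in poly(A)+ depended on the fit, since with the clutch as a block 36 rather than 62 long models were called higher at that stage (15.2% of all). In poly(A)+ 2 of the 53 unsupplied models were first called at 4 hpf, 33 (62.3%) at 7 hpf and 18 (34.0%) at 24 hpf. Of the unsupplied others, 8.38% were first called at 4 hpf, 28.6% at 7 hpf, 41.5% at 24 hpf and 12.7% at no stage. In rRNA-depleted libraries 6 of 50 were first called at 4 hpf (12.0%, against 6.20%), 18 at 7 hpf (36.0%, against 31.3%), and 0 at 3 hpf (against 1.23%). Unsupplied models entered the tests of both types through their later counts, so nothing is read from the gaps between these shares. Among supplied long models, 39 of 146 (26.7%) were first called higher at 24 hpf in poly(A)+, against 14.3% of the others. The first call of a lower level came at 2 hpf for 14 of the 146 (9.59%, against 8.52% of the others), at 3 hpf for 8 (5.48%, against 2.94%) and at 4 hpf for 6 (4.11%, against 3.32%). It came at 7 hpf for 24 (16.4%, against 19.7%), at 24 hpf for 15 (10.3%, against 21.2%) and at 72 hpf for 5 (3.42%, against 5.62%). The remaining 74 (50.7%, against 38.7% of the others) were never called lower.

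With Triptolide more long models were called lower than higher. In poly(A)+ libraries 4 of 199 were higher and 45 lower than with DMSO (5.04% and 18.9% of all models), with a median log2 fold change of -0.05 against -0.10 for the others. In rRNA-depleted libraries 17 of 196 were higher and 44 lower (17.9% and 14.5% of all), with a median of -0.06 against 0.08. The higher calls rested on the scaling and on single libraries. With RLE size factors, which moved the median of all models by -0.20, 2 were higher in rRNA-depleted libraries (7.85% of all), so that the higher ones made up 3.64% of the calls rather than 27.9%. Without DMSO D 8 were higher, without DMSO G or Triptolide D 3, and without Triptolide G 5, and with the clutch as a block 47 were (29.7% of all). In poly(A)+ the 4 higher became 1 without either DMSO library and 0 without either Triptolide library. In rRNA-depleted libraries 25 were lower without Triptolide D.

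Of unsupplied long models, 26 of 53 were lower in poly(A)+ (49.1%, against 25.2% of unsupplied others) and 23 of 50 in rRNA-depleted libraries (46.0%, against 29.5%). Their medians were -2.47 in poly(A)+ libraries and -1.77 in the other type, against -2.29 and -3.54 for the others. With groups without counts set to a floor of 3 counts over the group, they were -2.36 and -1.80, against -1.96 and -2.63. Unsupplied models entered these tests through the stages in which they have counts. Their shares and medians are therefore not alike in what they cover for long models and others. Of supplied long models, 19 of 146 were lower and 4 higher in poly(A)+ (13% and 2.74%, against 14.7% and 8.27% of supplied others), and 21 lower and 17 higher in rRNA-depleted libraries (14.4% and 11.6%, against 8.50% and 24.8% of supplied others). The calls at 7 hpf over the egg and those with Triptolide overlapped. In poly(A)+ 31 of the 62 were lower with Triptolide, as were 45.0% of the others called higher at that stage, and in rRNA-depleted libraries 34 of the 61 (55.7%), as were 51.7% of the others. Conversely, 31 of the 45 lowered in poly(A)+ (68.9%) had been called higher at 7 hpf, as had 68.0% of the lowered others, and 34 of the 44 lowered in rRNA-depleted libraries (77.3%), as had 77.8%. The 7 hpf and the treated libraries are different samples, and clutch D is in both in poly(A)+.

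**Figure D5:**
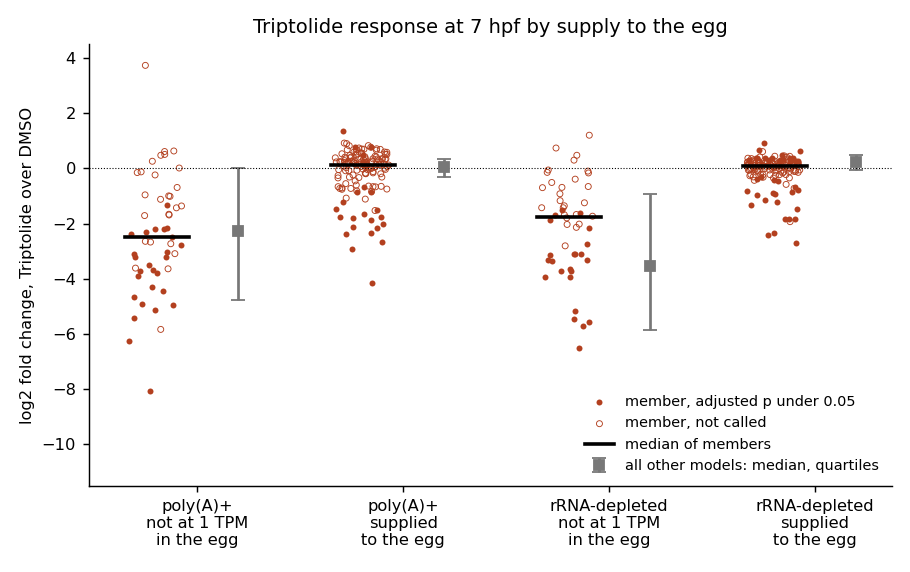
Fitted log2 fold change of Triptolide over DMSO at 7 hpf in each library type, for long models and all others with and without egg supply; points are long models (filled where called), lines are their medians, and squares with bars are medians and quartiles of all others. The medians of unsupplied long models lie at -2.47 (poly(A)+) and -1.77 (rRNA-depleted), and those of supplied ones at 0.13 and 0.09.

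Tested as a difference between types, the effect of Triptolide was more negative in poly(A)+ for 5 long models (2.82% of all models). It was more positive for 0 (0.704% of all). At an unadjusted p under 0.05 in that edgeR test, 4 were more positive, against 466 of 19262 others. DESeq2 called 0 more positive (0.935% of all). Fewer than 5 were more negative when any 1 library was left out. Over all long models the direction was the other one, with a median difference of 0.20 against 0.00 for the others, and 131 of 199 above 0. With the sample as a block 42 were more positive and 17 more negative (2.12% and 6.47% of all models). HyS0130.7, whose poly(A)+ level was low from 2 to 5 hpf, was 1 of the 5. Its poly(A)+ level was back at 7.97 TPM at 6 hpf and 7.18 and 6.25 TPM at 7 hpf. With Triptolide it had 0.526 and 1.18 TPM, against 4.84 and 5.60 TPM with DMSO (log2 fold change -2.66 ± 0.47 SE, adjusted p = 0.000368). In rRNA-depleted libraries it had 22.0 and 25.4 TPM with Triptolide, against 23.1 and 24.0 TPM with DMSO (-0.17 ± 0.19, adjusted p = 0.506), and the difference between types was -2.34 ± 0.57 (adjusted p = 0.0155). HyS0130.13 and HyS0016.308 were called in the same way, by -3.06 ± 0.55 (adjusted p = 0.00104) and -1.84 ± 0.37 (adjusted p = 0.00309), as were HyS0016.310 (-1.66, adjusted p = 0.0277) and HyS0043.65 (-1.72, adjusted p = 0.0442), both named after their values were seen.

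HyS0003.498 fell most with Triptolide in both types. It had 0.0580 and 0.0894 TPM with Triptolide, against 19.6 and 20.1 TPM with DMSO in poly(A)+ (log2 fold change -8.08 ± 0.92 SE, adjusted p = 3.67e-06). In rRNA-depleted libraries it had 1.06 and 0.981 TPM, against 78.3 and 87.9 TPM (-6.52 ± 0.90, adjusted p = 0.000398), beside 1.04, 0.844 and 1.07 TPM in the eggs. The second in poly(A)+ was HyS0012.57, with 0.0612 and 0.0159 TPM against 3.38 and 2.56 TPM (-6.26 ± 0.65, adjusted p = 1.33e-06), and the second by the rule for naming in rRNA-depleted libraries was HyS0042.80, with 0.0353 and 0.0130 TPM against 1.34 and 0.842 TPM (-5.57 ± 0.86, adjusted p = 0.00146). Some supplied models were higher with the inhibitor. HyS0034.215 had 11.5 and 11.3 TPM with Triptolide, against 5.21 and 5.43 TPM with DMSO in rRNA-depleted libraries (0.92 ± 0.12, adjusted p = 0.000297), and the eggs held 14.3, 13.1 and 16.6 TPM. HyS0012.307 had 40.5 and 42.7 TPM, against 24.5 and 22.4 TPM (0.65 ± 0.10, adjusted p = 0.000847), beside 45.5, 53.9 and 52.3 TPM in the eggs. In poly(A)+ HyS0034.17 had 3.46 and 4.55 TPM against 1.75 and 1.33 TPM (1.35 ± 0.48, adjusted p = 0.0487) and HyS0043.11 had 75.2 and 66.3 TPM against 44.4 and 36.4 TPM (0.77 ± 0.26, adjusted p = 0.0395). Both of these calls were lost without any 1 of the 4 libraries, with adjusted p from 0.0897 to 0.26 and from 0.0818 to 0.24, and that of HyS0034.17 also with RLE size factors (0.0517) and with DESeq2 (0.068).

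The models just inside and just outside the length limit were both near 0 in the egg. HyS0003.320, the shortest of the 200, had 0.0146, 0.0305 and 0.0741 TPM in poly(A)+ eggs, 1.53 and 2.70 TPM at 7 hpf and 1.73 and 1.18 TPM at 24 hpf. With Triptolide it had 0.113 and 0.126 TPM, against 1.72 and 1.79 TPM with DMSO in poly(A)+. HyS0102.10, the first outside, had 0, 0.00762 and 0.0212 TPM in poly(A)+ eggs, 0.255 and 0.402 TPM at 7 hpf and 17.1 and 14.2 TPM at 24 hpf. With Triptolide it had 0.0173 and 0.00903 TPM, against 0.848 and 0.681 TPM with DMSO.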

How the data were processed

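Per the labels and the study's methods, the authors trimmed paired reads with Trim Galore 0.6.6 and cutadapt 1.15 and quantified them with kallisto 0.46.1 in stranded mode against the Hsym v1.0 transcripts (versions from the submitters' processing notes). The deposited values are estimated counts per gene model, with a coding length, and hold no authors' comparisons. All columns were mapped to a sample (0 unmapped). TPM was computed from counts and coding length.

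Counts were rounded and models with a sum of at least 10 counts were tested with edgeR 4.0.16 (quasi-likelihood, TMM scaling, Benjamini-Hochberg adjustment over all models, R 4.3.3). The poly(A)+ fit held 25 libraries in 14 groups and 18928 models (199 long ones), the rRNA-depleted fit 18 libraries in 11 groups and 15944 models (196), and the joint fit 43 libraries in 25 groups and 19461 models (199). Stages with 1 library were assumed to vary like the others. The functions were tested on simulated data. A model was called supplied at a mean of 1 TPM in eggs of either type.

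The alternatives were RLE size factors, no count minimum, only the compared groups, DESeq2 1.42.0, a replicate block, leaving out each library (with the dispersion trend of the full fit), 5 TPM in eggs and 1 TPM in every egg library. The pairing comes from the clutch letters and from samples split for both types. Deviations of clutches A and C correlated between stages (r of 0.257 to 0.511 among poly(A)+ and 0.346 to 0.564 among rRNA-depleted libraries, 6 pairs each), as did both libraries of a sample (0.0657 to 0.506 over 13), whereas those of treated and DMSO samples of clutches D and G hardly did (0.00131 and 0.00872).

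Models were named by a rule: the 3 longest and those at ranks 200 and 201; the 2 with the largest mean egg TPM in each type; any the paper names; and, for the egg types, poly(A)+ at 4 and 24 hpf, rRNA-depleted at 4 and 7 hpf and Triptolide in each type, the 2 higher and 2 lower calls with the largest change whose groups did not overlap and that reached 1 TPM in a group. The long models and the comparisons were chosen with earlier results of these data known. Of 22022 identifiers, 0 matched the RefSeq gene table, so models have no names or functions here.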

Additional observations from a re-analysis of the deposited data

Results flagged for a closer look

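The change from the egg differed between library types, by the interaction term of the joint edgeR fit, for 1 long model that was more positive and 8 that were more negative in poly(A)+ at 2 hpf (0.601% and 3.46% of all models). At 4 hpf it differed for 10 that were more positive and 18 that were more negative (4.09% and 5.23%). The effect of Triptolide was more negative in poly(A)+ for 5 long models (2.82% of all), while the median difference over the long models was 0.20. With the sample as a block these counts were 28 and 29 at 2 hpf, 37 and 43 at 4 hpf, and 42 more positive and 17 more negative for Triptolide.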

How the results depend on the processing

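Shares of all models tested in the same fit stand in parentheses, except for the fits without a count minimum, where they are not given. With RLE size factors or DESeq2, 2 rather than 17 long models were higher with Triptolide in rRNA-depleted libraries (7.85% and 8.89%), and the median was -0.27. DESeq2 called 3 higher at 2 hpf in poly(A)+ (2.51%), 1 lower at 2 hpf (0.0188%), 5 lower at 3 hpf (0.0564%) and 10 higher and 10 lower at 4 hpf (2.98% and 1.33%) in rRNA-depleted libraries, and 2 higher in poly(A)+ eggs (16.7%). Without a count minimum, 2 were higher at 2 hpf in poly(A)+ and 7 lower at 4 hpf in rRNA-depleted libraries. In fits of only the compared groups, 6 were higher and 29 lower at 2 hpf (2.69% and 9.48%), 16 and 31 at 3 hpf (6.89% and 12.4%), and 43 lower at 4 hpf (14.9%) in poly(A)+. In rRNA-depleted libraries 0 were lower at 3 hpf (0.0%) and 0 higher at 4 hpf (1.74%). In such fits, Triptolide gave 49 higher in poly(A)+ (17.8%) and 86 lower in rRNA-depleted libraries (28.9%, median of the long models -0.23). The differences between types, more positive and more negative in poly(A)+, came to 3 and 20 at 2 hpf (1.23% and 7.43%), 21 and 28 at 4 hpf (6.32% and 8.57%), and 33 and 16 for Triptolide (2.23% and 7.83%). The causes of these shifts were not tested.

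With the clutch or sample as a replicate block, 12 were higher at 4 hpf (9.37%) and 36 higher and 27 lower at 7 hpf (15.2% and 14.6%) in poly(A)+. In rRNA-depleted libraries 4 were lower at 3 hpf (0.107%), 12 higher and 11 lower at 4 hpf (3.44% and 1.97%), and 47 higher with Triptolide (29.7%). In poly(A)+ over rRNA-depleted eggs 4 were higher (21.0%). The paired differences between types were 28 and 29 at 2 hpf (4.88% and 7.60%), 37 and 43 at 4 hpf (10.1% and 9.70%), and 42 and 17 for Triptolide (2.12% and 6.47%). HyS0034.17 lost its call under the block (1.35, adjusted p = 0.0667), which changed no other call of a named model. No block could be fitted for larvae or for the rRNA-depleted library at 7 hpf, which share no clutch with the eggs.

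For fits that left out 1 library, shares over all models are not given here or above. A change common to all models and one of the long models cannot be told apart from these counts. Leaving out 1 library at a time gave 129 to 133 long models at 1 TPM in poly(A)+ eggs and 144 to 146 in rRNA-depleted eggs. In poly(A)+ 1 to 2 were higher and 7 to 14 lower at 2 hpf, 2 to 6 and 13 to 17 at 3 hpf, 9 to 14 and 17 to 26 at 4 hpf, 50 to 58 and 31 to 48 at 7 hpf, and 105 to 114 and 28 to 44 at 24 hpf (median 1.22 to 1.58). At 72 hpf they were 85 to 125 and 45 to 78 (median -0.026 to 1.42). In rRNA-depleted libraries 0 to 1 were lower at 3 hpf, 0 to 12 higher and 3 to 4 lower at 4 hpf, and 56 to 58 higher and 24 to 26 lower at 7 hpf. In poly(A)+ over rRNA-depleted eggs 0 to 1 were higher and 90 to 104 lower (median -0.96 to -0.83). Differences between types numbered 1 and 5 to 9 at 2 hpf, 7 to 9 and 15 to 17 at 4 hpf, and 0 and 2 to 4 for Triptolide. Triptolide gave 0 to 1 higher and 33 to 44 lower in poly(A)+, and 3 to 8 higher and 25 to 38 lower in rRNA-depleted libraries. Medians near 0 changed sign. The median at 4 hpf over the egg in poly(A)+ was 0.03 and lay below 0 with RLE size factors, with DESeq2, without a count minimum, in the fit of only the compared groups and without egg A or without clutch A or C of 4 hpf, down to -0.10. The median difference between types was 0.04 at 2 hpf and -0.02 with only the compared groups, and -0.10 at 4 hpf and 0.06 without 1 rRNA-depleted library of that stage. The median at 72 hpf over the egg was 0.92, and -0.026 without clutch E. No called model named in the report changed sign.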

Other observations

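Of 5 pairs of long models that are neighbours on a scaffold, HyS0001.339 (25065 bases) and HyS0001.340 (11715 bases) moved in opposite directions in rRNA-depleted libraries, a pair picked after the values were seen. At 4 hpf HyS0001.339 had 3.17 and 3.21 TPM, against 7.35, 7.32 and 7.20 TPM in eggs (log2 fold change -0.82, adjusted p = 0.000293 by edgeR), while HyS0001.340 had 3.51 and 1.17 TPM, against 0.531, 0.640 and 0.373 TPM in eggs. At 7 hpf HyS0001.339 had 3.31 TPM and HyS0001.340 27.3 TPM.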
